A study of Mus musculus with 4 samples.

Results

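Chemokines are small secreted or membrane-tethered proteins that direct the movement of leukocytes, and their receptors are the G protein-coupled proteins that read them. The set described here holds the genes of the deposited table whose symbol names a CXC, CC, CX3C or XC chemokine or receptor, with the platelet chemokines Ppbp and Pf4 added by name. It comprises 61 of the 23281 genes listed, 40 ligands and 21 receptors. RNA sequencing covered 3 libraries of mouse horizontal basal cells (HBCs), the reserve stem cells of the olfactory epithelium, and 1 library of respiratory basal cells (RBCs), the stem cells of the neighbouring respiratory lining. The HBCs came from wild-type mice, had been grown in vitro to passage 3, and carry no entry for sorting. The RBCs were microdissected from mice of the strain KRT5-CreER;Ai9-fl(stop)TdTomato, in which a Krt5-driven inducible Cre recombinase switches on a red reporter, and were taken straight from the animal by sorting TdTomato+ cells. The sources used here do not give the ages of the mice, the number of animals behind each library or the dosing that activates the Cre. The groups thus differ in tissue, in culture, in strain and in sorting at the same time, and these cannot be told apart.

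In an epithelium, basal and surface cells release chemokines that bring in neutrophils, lymphocytes and dendritic cells after injury or infection. The CXC chemokines that carry the amino acids glutamate, leucine and arginine ahead of their cysteines act on Cxcr2 and draw neutrophils. Those induced by interferon act on Cxcr3 and draw T cells, and Ccl20 acts on Ccr6 of dendritic cells and lymphocytes. Most are induced through NF-kB, and atypical receptors such as Cxcr7 take up chemokines without the usual G protein signal.

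The values are depth-scaled FPKM, fragments per kilobase of transcript divided by 1 factor per library, so levels of different genes can be set side by side. Means of the cultures carry their SD (n = 3), while the RBC value stands alone, without a replicate. A gene was called when limma's adjusted p was under 0.05 and the change was at least 2-fold. The spread comes from the HBC libraries alone, and the labels do not say whether these came from separate animals. Deposited values summed to between 8377232 and 10855996 per library, and depth in reads is unknown. Both groups expressed the basal cell genes Krt5 (18625 ± 369 in HBCs against 26488 in RBCs) and Trp63 (546 ± 12.8 against 4307). All 12 basal markers examined were at 1 or more in both groups. Of the 12, 8 were called higher in RBCs (66.7%, against 24.0% of all such genes), among them Icam1 (50.1 ± 5.65 against 1494). Epcam (7025 ± 127 against 3197) was the 1 called higher in HBCs, where 14.4% of all such genes were, and 3 were not called. Endothelial markers summed to 129 in RBCs and to 6.95 to 9.30 in HBCs. Markers of fibroblasts and of myeloid cells were likewise higher in sum in RBCs, mostly through the single genes Dcn and Lyz2 respectively. In such bulk samples, fewer cells of a type and less RNA per cell cannot be told apart.

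The neutrophil-attracting CXC genes lie side by side on mouse chromosome 5, and promoters of 4 of them are shown with those of Cxcl10, from the same chromosome, and Ccl20 because these genes include the most abundant chemokine of each group and one with a low level in the cultures. The sequences are the 250 bases before the start site in RefSeq (build GRCm38.p6), 5′ to 3′ on the gene's own strand. The build named in the submitters' processing notes is mm9, so these coordinates belong to the sequences and not to the expression table. Capitals mark matches, on either strand, to the kappaB motif (GGGA and TTCC with any 2 bases between), the AP-1 motif TGANTCA and the TATA box TATAAA.
Ppbp, chr5:90768268-90768517, plus strand: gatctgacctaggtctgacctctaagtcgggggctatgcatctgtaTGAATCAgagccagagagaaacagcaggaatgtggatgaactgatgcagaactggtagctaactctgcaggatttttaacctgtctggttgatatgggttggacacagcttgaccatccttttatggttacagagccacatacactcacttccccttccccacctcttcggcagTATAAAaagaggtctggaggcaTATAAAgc
Cxcl1, chr5:90890995-90891244, plus strand: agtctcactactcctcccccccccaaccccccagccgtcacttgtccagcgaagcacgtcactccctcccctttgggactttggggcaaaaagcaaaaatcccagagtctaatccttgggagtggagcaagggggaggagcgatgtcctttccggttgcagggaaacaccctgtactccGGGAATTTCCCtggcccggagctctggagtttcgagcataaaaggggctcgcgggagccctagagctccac
Cxcl2, chr5:90903649-90903898, plus strand: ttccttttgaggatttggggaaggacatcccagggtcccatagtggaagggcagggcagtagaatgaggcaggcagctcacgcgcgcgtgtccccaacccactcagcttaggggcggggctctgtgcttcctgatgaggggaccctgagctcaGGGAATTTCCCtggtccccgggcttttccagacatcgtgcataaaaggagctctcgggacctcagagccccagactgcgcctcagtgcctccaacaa
Cxcl3, chr5:90785851-90786100, plus strand: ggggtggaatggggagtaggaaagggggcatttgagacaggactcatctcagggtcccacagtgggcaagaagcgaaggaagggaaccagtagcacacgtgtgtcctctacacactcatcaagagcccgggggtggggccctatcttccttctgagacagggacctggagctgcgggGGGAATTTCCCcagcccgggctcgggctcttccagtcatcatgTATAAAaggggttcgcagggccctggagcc
Cxcl10, chr5:92348890-92349139, minus strand: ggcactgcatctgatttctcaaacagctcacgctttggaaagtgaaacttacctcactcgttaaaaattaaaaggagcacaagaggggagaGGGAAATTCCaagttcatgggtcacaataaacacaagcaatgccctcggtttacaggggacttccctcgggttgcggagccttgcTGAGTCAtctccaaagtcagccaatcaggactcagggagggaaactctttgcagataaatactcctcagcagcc
Ccl20, chr1:83116516-83116765, plus strand: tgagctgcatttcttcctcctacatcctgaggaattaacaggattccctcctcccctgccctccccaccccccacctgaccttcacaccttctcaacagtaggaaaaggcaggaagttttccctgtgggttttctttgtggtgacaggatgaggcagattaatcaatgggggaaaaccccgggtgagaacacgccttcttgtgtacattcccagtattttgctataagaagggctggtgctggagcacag

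Cxcl1, Cxcl2 and Cxcl3 held the same kappaB letters GGGAATTTCC, beginning 71, 97 and 73 bases before the start, and in each the match on the opposite strand overlapped it by all but 1 base. Cxcl10 held GGGAAATTCC at 159 bases and an AP-1 match, TGAGTCA, at 74 bases. The Ppbp window held no kappaB match. It held the AP-1 letters TGAATCA at 204 bases and TATAAA at 30 and 8 bases. The Ccl20 window held none of the 3 motifs. All 61 genes matched a RefSeq gene, 59 by the current symbol and 2 by a synonym, and 45 had a promoter in the table used. These 45 genes had 54 promoters there, some with overlapping sequence. Of the 54, 6 (11.1%) held the kappaB motif, against 1.21% of 32851 promoters of the same length. The AP-1 motif stood in 7 (13%, against 6.75%) and the TATA box in 14 (25.9%, against 12.4%). Cxcl5 was not among the promoters used here. Besides Cxcl1, Cxcl2, Cxcl3 and Cxcl10, the kappaB motif stood in the promoters of Ccl1 and Ccr3. Ccl1 was listed at 0 in all 4 libraries, and Ccr3 was at 2.27, 0.911 and 0.300 in HBCs and at 0 in RBCs. A match is only a run of letters, and Cxcl3, with the same kappaB letters as Cxcl1, had one of the lowest levels of the cluster.

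The neutrophil attractants Ppbp, Cxcl1 and Cxcl5 were the most abundant chemokines of the cultures and were lower in the RBC library. Ppbp, the precursor of a platelet-stored neutrophil attractant, was at 42003, 38937 and 41103 in HBC libraries 1, 2 and 3 and at 14.8 in the RBC library. It ranked 19th, 21st and 20th of all genes in these cultures, and its libraries stood within 1.08-fold of each other. The difference was 2748-fold (log2 change -11.33, SE 0.06, limma adjusted p = 1.67e-05). Cxcl5, a neutrophil attractant of epithelial cells, was at 3492, 3548 and 3698 in HBCs and 81.0 in RBCs, a 44.2-fold difference (limma adjusted p = 5.05e-05). Cxcl1, the mouse keratinocyte chemokine, was at 4450, 3876 and 4545 in HBCs and 769 in RBCs (5.58-fold, limma adjusted p = 0.00213). Every HBC library exceeded the RBC library for these 3 genes.

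Cxcl2, a close relative of Cxcl1, was at much lower levels, with 124, 122 and 118 in HBCs and 35.8 in RBCs (3.39-fold, limma adjusted p = 0.000984). Cxcl3 was at 11.4, 12.6 and 8.0 in HBCs and 6.87 in RBCs. Its log2 change of -0.55 (95% interval -1.64 to 0.54) did not pass the test (limma adjusted p = 0.220), but it did under quantile normalization, which sets the distributions of all libraries equal (-2.93, adjusted p = 0.00297). Of the 5 listed genes of this class, 4 were thus called higher in HBCs and none in RBCs. Over all 16440 genes tested, 12.8% were called higher in HBCs and 34.2% higher in RBCs. A row named Il8, which RefSeq gives as an older name of the lung chemokine Cxcl15, stood at 0.524 ± 0.489 in HBCs and 2.89 in RBCs.

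**Figure D1:**
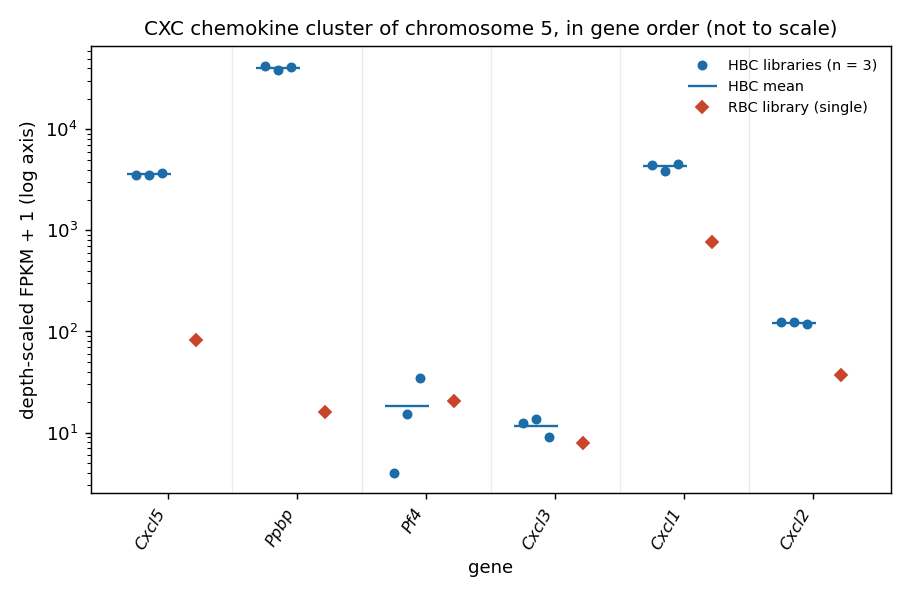
Depth-scaled FPKM plus 1 (log axis) of 6 CXC chemokine genes in their order along chromosome 5; circles are the 3 HBC libraries, the line is their mean and the diamond is the single RBC library. Ppbp stands near 40681 in HBCs, whereas its neighbour Pf4 averages 17.1 and spreads widely among the 3 libraries.

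Adjacent genes of this cluster differed widely in level. In RefSeq the order is Cxcl5, Ppbp, Pf4, Cxcl3, Cxcl15, Cxcl1 and Cxcl2. Pf4, the platelet factor that is stored with the Ppbp product in platelet granules, directly follows Ppbp. It was at 3.00, 14.3 and 34.0 in the cultures and at 19.3 in RBCs, so the RBC value lay inside an 11.3-fold range of the cultures. Its log2 change was 0.66 (95% interval -4.74 to 6.06, limma adjusted p = 0.727), and this turned to -0.19 without HBC library 1 and to -1.59 under quantile normalization.

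Because Ppbp is best known from platelets, genes of platelets and their precursors were examined beside it. Of 13 such genes, 7 were listed at 0 in every HBC library. Of these, 3 (Gp6, Clec1b and Rgs18) were at 0 in RBCs as well, while Treml1 was at 5.47 and Nrgn at 27.2 there. Gp9 was above 0 only in HBC library 1 (1.90). None of the 13 averaged 10 or more in HBCs. Their summed level was 18.1 to 27.7 in the HBC libraries and 131 in RBCs. The platelet receptor subunits Gp1ba and Itga2b were at 9.25 ± 1.91 and 6.01 ± 2.83 in HBCs and at 32.6 and 50.1 in RBCs. Of 8 tested, 5 passed the filter only through the RBC value, so these could only be higher in RBCs. Of the 3 that reached 1 in both groups, 2 were called higher in RBCs, where 24.0% of all such genes were. The part of platelets in the Ppbp and Pf4 values was not tested.

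**Figure D2:**
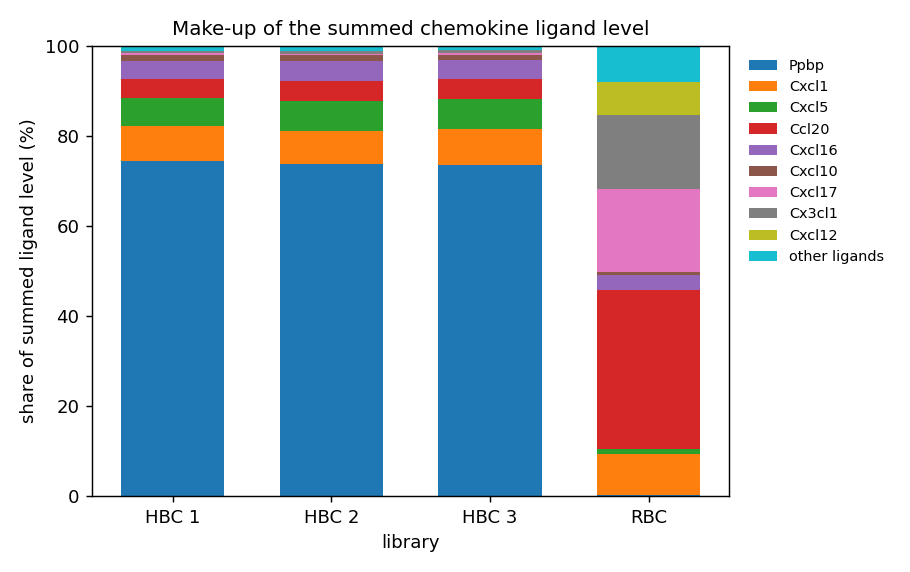
Stacked bars of each ligand's share (%) of the summed level of the 40 chemokine ligands in every library. Ppbp takes 73.5% to 74.4% of the sum in the HBC libraries and 0.178% in the RBC library, where Ccl20 takes 35.4%.

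Ppbp made up most of the ligand pool of the cultures and little of that of the RBC library. Ligand levels summed to 56466, 52770 and 55921 in the HBC libraries and to 8312 in the RBC library. Without Ppbp the sums were 14462, 13832 and 14818 against 8297. Its share of the pool was 74.4%, 73.8% and 73.5% in HBCs and 0.178% in RBCs. In RBCs the leading ligands were Ccl20 (35.4%), Cxcl17 (18.4%), Cx3cl1 (16.4%), Cxcl1 (9.25%) and Cxcl12 (7.43%).

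Among the interferon-induced ligands of Cxcr3, the level of Cxcl10 in HBCs was 744, 680 and 700, and in RBCs it was 58.9 (12.0-fold, limma adjusted p = 0.000362). Cxcl11 was far lower, at 7.45, 3.99 and 5.27 in HBCs, with 0 in the RBC library (log2 change -2.68, SE 0.38, limma adjusted p = 0.0147). That call was lost without HBC library 3 (adjusted p = 0.0711) and with a pseudocount of 10 (log2 change -0.63). Cxcl11 also passed the filter only through the HBC values, so it could only be higher there. Cxcl9, the member of the trio that depends most on type II interferon, had no value above 0 in the cultures and stood at 0.342 in RBCs. The exons of Cxcl10 overlap those of Art3 on the opposite strand over 5.91% of their length. Art3 was listed at 0 in HBCs and was at 68.8 in RBCs.

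**Figure D3:**
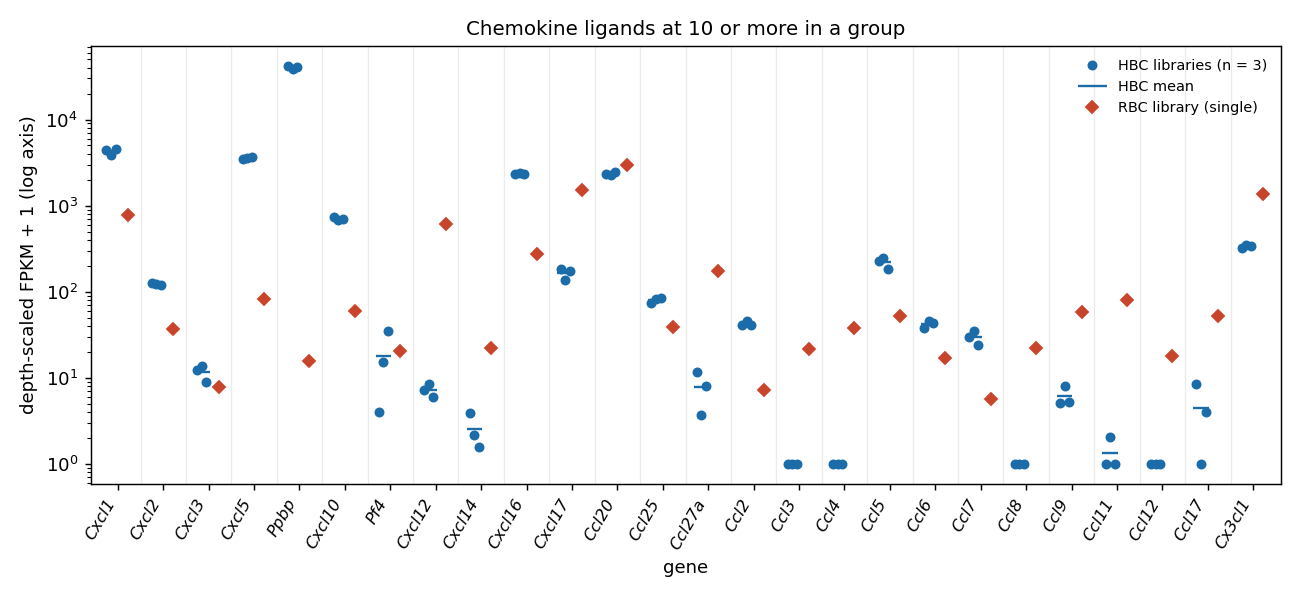
Depth-scaled FPKM plus 1 (log axis) of the 26 ligands at 10 or more in a group, ordered by role; circles are the HBC libraries, the line is their mean, the diamond is the RBC library, and a value of 1 means listed at 0. Ppbp, Cxcl5, Cxcl10 and Cxcl16 stand higher in HBCs, Cxcl12, Cxcl17 and Cx3cl1 higher in RBCs, and Ccl20 nearly level.

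Ccl20, the mucosal attractant of Ccr6-bearing cells, was among the leading chemokines of both groups. It was at 2333, 2261 and 2478 in HBCs and at 2942 in RBCs. The RBC value lay above all HBC values, but the 1.25-fold difference was below the 2-fold minimum (log2 change 0.32, 95% interval 0.09 to 0.55, limma adjusted p = 0.0333). Its direction turned when all libraries were given the same median (log2 change -0.18). In HBCs, Ccl20 (2358 ± 110) could not be separated in rank from Cxcl16 (2349 ± 15.6). Its receptor Ccr6 was at 0 in every culture, and the RBC value was 0.818.

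The other mucosal CC genes were lower. Ccl25, the thymic and gut chemokine that acts on Ccr9, was at 72.4, 81.7 and 83.6 in HBCs and 37.8 in RBCs (2.09-fold, limma adjusted p = 0.00999). That difference lies at the edge of the rule and was not called with values as deposited (log2 change -0.93), with equal sums (-0.95), with a pseudocount of 10 (-0.90) or without HBC library 2 (adjusted p = 0.0559). Ccl27a, a skin-homing chemokine of keratinocytes, was at 10.7, 2.73 and 7.02 in HBCs and 175 in RBCs (25.6-fold, limma adjusted p = 0.0244). The call was lost without HBC library 1 (adjusted p = 0.0537) or 3 (0.0933). Ccl27a overlaps Il11ra1 on the opposite strand by 8 exonic bases, and Il11ra1 was at 39.9 ± 12.2 and 362. Ccl28, a chemokine of mucosal glands, was listed at 0 in all 4 libraries. So was Hmgcs1, the next protein-coding gene on the chromosome which encodes a sterol synthesis enzyme that cells generally need, and a 0 there can be a failed estimate.

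The ligands with a membrane-bound form moved in opposite directions. Cxcl16, which draws Cxcr6-bearing T cells and is shed from the cell surface, was at 2357, 2360 and 2331 in HBCs and 270 in RBCs. The cultures were nearly identical, with an SD of 15.6 on a mean of 2349, and the difference was 8.71-fold (limma adjusted p = 1.04e-05). Cx3cl1, or fractalkine, was at 321, 350 and 335 in HBCs and 1365 in RBCs, 4.07-fold higher in the latter (limma adjusted p = 0.000907). Of the surface proteases that release both, Adam17 was at 581 ± 22.3 in HBCs and 286 in RBCs (called higher in HBCs, log2 change -1.02). Adam10 was at 841 ± 33.2 and 524 and was not called. Zmynd15 lies opposite Cxcl16 and shares 18.3% of its exonic bases. It was at only 15.5 ± 3.66 and 13.1.

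Other CXC ligands were higher in the RBC library. Cxcl17, a mucosal chemokine of airway epithelium, was at 181, 136 and 174 in HBCs and 1530 in RBCs (9.36-fold, limma adjusted p = 0.00359). Cxcl12, the stromal ligand of Cxcr4 and Cxcr7, was at 6.23, 7.51 and 5.02 in HBCs and 617 in RBCs (98.7-fold, limma adjusted p = 0.00151). Cxcl14 was at 2.86, 1.15 and 0.569 in HBCs and 21.1 in RBCs, a call that was lost under quantile normalization (log2 change 0.83, adjusted p = 0.261), with a pseudocount of 0.1 (0.0587) and on leaving out HBC library 2 (0.116) or 3 (0.0728). The fibroblast markers were higher in sum in the same library, at 8150 against 165 to 186 in HBCs. Most of that sum was Dcn (6902 against 44.0 ± 11.8), and Col1a1 was at 361 against 1.27 ± 0.265. Of the 14 tested, 13 were called higher in RBCs and 1, Twist1, in HBCs (16.2 ± 0.757 against 6.49). In 4 only the RBC value passed the filter. Of the 10 that reached 1 in both groups, 9 were higher in RBCs, where 24.0% of all such genes were. None of the 14 was listed at 0 in all HBC libraries. Their part in the Cxcl12 and Cxcl14 values was not tested.

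The inflammatory CC ligands split by gene. Ccl5, which draws T cells and monocytes, was at 228, 243 and 183 in HBCs and 51.1 in RBCs (4.26-fold, limma adjusted p = 0.00806). The monocyte attractants Ccl2 and Ccl7 are neighbours on chromosome 11. Ccl2 was at 40.3, 44.5 and 40.0 against 6.16 (6.75-fold, limma adjusted p = 0.00191). Ccl7 was at 29.1, 34.2 and 23.4 against 4.68 (6.18-fold, limma adjusted p = 0.00991), a call lost without HBC library 1 (adjusted p = 0.0555). Ccl6 was at 36.7, 45.3 and 41.9 against 15.8, a 2.62-fold difference whose call was lost without HBC library 3 (adjusted p = 0.0622), with values as deposited (0.0754) and with a pseudocount of 10 (log2 change -0.99). All HBC libraries stood above the RBC library for these 4 genes.

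In the opposite direction, Ccl3, Ccl4, Ccl8 and Ccl12 were at 0 in each culture, with RBC values of 20.6, 36.6, 21.2 and 16.8. Ccl11, or eotaxin, was at 0, 1.07 and 0 in HBCs and 80.0 in RBCs (limma adjusted p = 0.00743). Ccl9 was at 4.14, 6.98 and 4.27 in HBCs and 57.1 in RBCs (11.1-fold, limma adjusted p = 0.00883). Ccl8, Ccl11 and Ccl12 lie in the same run of genes as Ccl2 and Ccl7, so neighbours of 1 cluster differed in direction. Of the 13 inflammatory CC genes listed, 3 were at 0 in every library, and of the 10 tested 6 were called higher in RBCs and 4 in HBCs, where the shares over all genes tested were 34.2% and 12.8%. All of the 6 except Ccl9 passed the filter only through the RBC value. Among the 5 that reached 1 in both groups, 1 was called higher in RBCs and 4 in HBCs, where 24.0% and 14.4% of all such genes were. The 4 genes at 0 in HBCs carry no p, because any gene of this kind that passed the filter was bound to be called.

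Macrophage, monocyte and dendritic cell markers were examined beside these CC genes. Of 21 such markers, 19 were tested, of which 12 passed the filter only through the RBC value and so could only be higher in RBCs. Of the 7 that reached 1 in both groups, 4 were called higher in RBCs and 1, Cd68, in the cultures, where 24.0% and 14.4% of all such genes were. Csf1r, Tyrobp, C1qb and H2-Aa were listed at 0 in the cultures and were at 35.5, 64.1, 69.2 and 479 in RBCs. Their summed level was 3068 to 3219 in HBCs, most of it Cd14 (2591 ± 73.7) and Cd68 (515 ± 42.6), and 18461 in RBCs, most of it Lyz2 (14770.2). Mast cell and eosinophil markers summed to 3.19 to 7.82 in HBCs and 61.1 in RBCs, and T and B cell markers to 6.61 to 12.2 and 38.5. The part of these cells in the CC ligand values was not tested. In all HBC libraries, 7 of the 21 myeloid, 6 of 14 lymphocyte and 7 of 11 listed neutrophil markers were at 0. The neutrophil list nevertheless summed to 11983 to 12330 in HBCs, nearly all of it Lcn2, and to 1210 in RBCs. Lcn2, which epithelial cells also make, was called higher in HBCs (11827 ± 126 against 764). S100a8 (117 ± 19.7 against 181) and S100a9 (198 ± 42.4 against 203), also made by epithelium, were not called. The other 4 of the 7 tested passed the filter only through the RBC value. These were Camp, Ngp, Csf3r and Retnlg, at 0 in HBCs and at 30.6, 17.4, 6.53 and 6.90 in RBCs.

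Among the homing chemokines of T and dendritic cells, Ccl17 was at 7.40, 0 and 3.01 in HBCs and 50.9 in RBCs. The wide spread of the cultures left it uncalled (log2 change 4.01, 95% interval -1.32 to 9.33, limma adjusted p = 0.112), although it was called with a pseudocount of 10 (adjusted p = 0.0202). Ccl22 was listed at 0 in HBCs and at 6.91 in RBCs. Ccl19, Ccl21a, Ccl21b and Ccl21c were listed at 0 in all 4 libraries. These genes have near-identical copies on chromosome 4, as has Ccl27b, also at 0, and a read shared between copies may not have been counted.

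**Figure D4:**
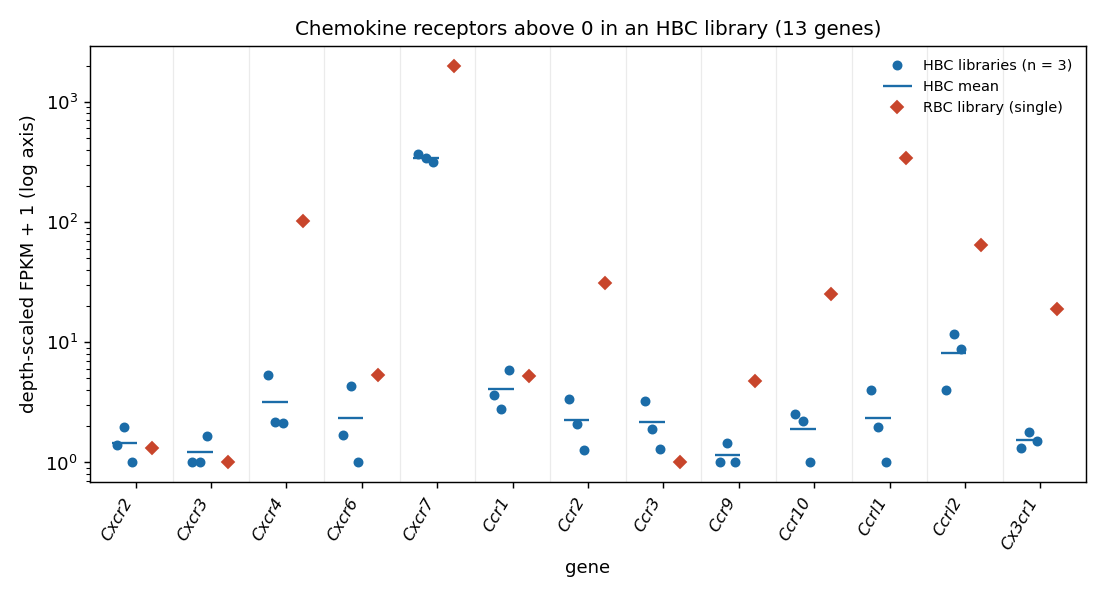
Depth-scaled FPKM plus 1 (log axis) of the 13 receptors above 0 in an HBC library; circles are the HBC libraries, the line is their mean, the diamond is the RBC library, and a value of 1 means listed at 0. Only Cxcr7 averages above 10 in the cultures, at 339, and 7 receptors reach 10 in the RBC library.

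Receptors were few in the cultures. Cxcr7, the atypical scavenger of Cxcl12, was at 364, 338 and 316 in HBCs and 1993 in RBCs, 5.88-fold higher in the latter (limma adjusted p = 0.00148). It was the only one of the 21 receptors that averaged 10 or more in HBCs. Ccrl1, another atypical receptor, which takes up Ccl19, Ccl21 and Ccl25, was at 3.04, 0.978 and 0 in HBCs and 342 in RBCs (limma adjusted p = 0.0133). The call was lost without HBC library 2 (adjusted p = 0.0693) and with a pseudocount of 0.1 (0.0644). Acad11, which contains Ccrl1 on the opposite strand and shares 8.90% of its exonic bases, was at 295 ± 14.9 in HBCs and 1011 in RBCs. Without a stated strand setting, reads of such pairs cannot be told apart.

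Signalling receptors were at low levels in HBCs, and none averaged 10 or more. Cxcr4, the receptor of Cxcl12, was at 4.32, 1.16 and 1.14 in HBCs and 101 in RBCs (limma adjusted p = 0.0157), a call lost without HBC library 2 (adjusted p = 0.0677) or 3 (0.0659). Cxcr2, through which Ppbp, Cxcl1, Cxcl2 and Cxcl5 act, was deposited at 0.345, 1.03 and 0 in HBCs and at 0.345 in RBCs, below the minimum for testing. Cxcr1 was listed at 0 in all 4 libraries. Cxcr3 was at 0.657 in HBC library 3 and at 0 elsewhere, and Cxcr6, the receptor of Cxcl16, was at 0.687, 3.31 and 0 in HBCs and 4.38 in RBCs. Neutrophil-attracting ligands were thus high in cultures in which their receptors were near 0.

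Ccr2, the receptor of Ccl2 and Ccl7 on monocytes, was at 2.40, 1.10 and 0.272 in HBCs and 30.0 in RBCs (limma adjusted p = 0.0243). Ccr10, which reads Ccl27a and Ccl28, was at 1.52, 1.22 and 0 in HBCs and 24.3 in RBCs (adjusted p = 0.0262). Both calls were lost under quantile normalization (adjusted p = 0.0842 and 0.144) and with a pseudocount of 0.1 (0.0647 and 0.132). Without HBC library 2 the adjusted p was 0.0997 for Ccr2 and 0.0896 for Ccr10, and without library 1 it was 0.0720 for Ccr10. Cx3cr1, the fractalkine receptor of monocytes and macrophages, was at 0.327, 0.788 and 0.518 in HBCs and 18.0 in RBCs (adjusted p = 0.00284). Ccr10 and Cx3cr1 passed the filter only through the RBC value, so they could only be higher there. Ccrl2, a non-signalling receptor, was at 3.04, 10.7 and 7.73 in HBCs and 63.6 in RBCs. Its limma adjusted p of 0.0489 rose above 0.05 under 8 of 12 alternatives, reaching 0.138 without HBC library 3. Most of the myeloid markers listed above were higher in the same library, and their part in the receptor values was not tested.

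Of the 21 receptors, 12 were tested, 10 (83.3%) were called higher in RBCs and none in the cultures, where 34.2% and 12.8% of all genes tested were. In 5 of the 12 only the RBC value brought the gene past the filter, so these could only be higher in RBCs. Of the 7 that reached 1 in both groups, 5 were called higher in RBCs, where 24.0% of all such genes were. Ccr7, the lymph node homing receptor, was listed at 0 in HBCs and at 2.09 in RBCs. Ccr9 was at 0.453 in HBC library 2, at 0 in the other cultures and at 3.75 in RBCs, and its direction turned under quantile normalization (log2 change -0.15). Ccr1 was at 2.65, 1.77 and 4.91 in HBCs and 4.22 in RBCs, within the spread of the cultures. Under quantile normalization Ccr1 was called higher in HBCs (log2 change -1.97). Ccr3 was at 2.27, 0.911 and 0.300 in HBCs and at 0 in RBCs. Ccr4, Ccr8 and Cxcr5 were listed at 0 in all 4 libraries. So was the XC ligand Xcl1, whose receptor Xcr1, a marker of a class of dendritic cells, was at 0.653 in RBCs and at 0 in the cultures. The B cell attractant Cxcl13 was at 0.967 in RBCs and likewise at 0 in the cultures.

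**Figure D5:**
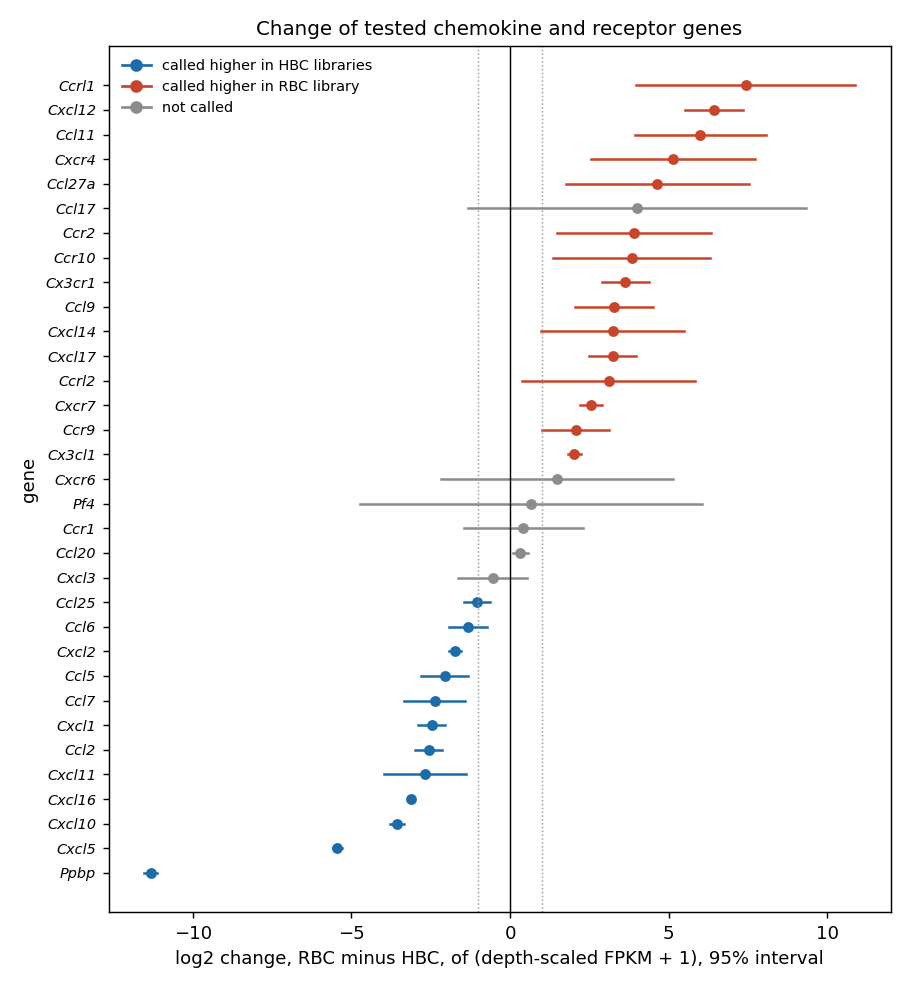
Log2 change (RBC minus HBC, of depth-scaled FPKM plus 1) with its 95% interval from limma for the 33 tested genes above 0 in an HBC library; dotted lines mark a 2-fold change. The 12 genes called higher in HBCs run from Ppbp at -11.33 to Ccl25 at -1.04, and the widest intervals are those of Pf4, from -4.74 to 6.06, and Ccl17, from -1.32 to 9.33.

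Across the set, 40 of 61 genes passed the filter on low values, 14 were listed at 0 in every library and the other 7 lay below the filter. Of the 40, 22 (55.0%) were called higher in RBCs, where the share over all genes tested was 34.2%, and 12 (30.0%) higher in HBCs, where it was 12.8%. All 12 called higher in HBCs were ligands, though the receptor Ccr1 was also called higher there under quantile normalization. The filter fixed part of the RBC count: 11 of the 40 passed only through the RBC value, 7 of them at 0 in all HBC libraries. On the other side, Cxcl11 passed only through the HBC values, so it could only be higher in HBCs. Among the 28 that reached 1 in both groups, 11 were called in each direction and 6 in neither, where 24.0% of all such genes were higher in RBCs and 14.4% in the cultures. The median log2 change was 0.49 over the 28 tested ligands and 3.01 over the 12 tested receptors, and it was 0.45 over all genes tested.

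Listed genes that control chemokine expression in epithelium were called at shares near those of all genes. The list covered NF-kB subunits and inhibitors, receptors for interleukin 1, interleukin 17 and tumour necrosis factor, Toll-like receptors and regulators of mRNA decay. All 32 listed reached 1 in both groups, and 22 were not called. The RBC library was higher for 6 (18.8%, against 24.0% of all such genes) and the cultures for 4 (12.5%, against 14.4%), and the median log2 change was 0.35. Zfp36, which speeds the decay of chemokine and cytokine mRNAs, was at 8347 in RBCs and 230 ± 15.7 in HBCs (limma adjusted p = 0.000386). Il1rn, the interleukin 1 receptor antagonist, was at 1156 ± 40.2 in HBCs and 29.9 in RBCs (adjusted p = 8.16e-05). The tumour necrosis factor receptor Tnfrsf1b (81.0 ± 2.38 against 14.5) and the double-stranded RNA sensor Tlr3 (346 ± 7.56 against 81.2) were also higher in HBCs. Il1r1, the signalling interleukin 1 receptor, reached 150 in RBCs against 42.0 ± 2.73, and Cebpd, a transcription factor of the acute phase response, was at 684 and 198 ± 8.05.

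Genes that bind, cut or scavenge chemokines formed a further list, and genes that carry receptor signals another. Of 24 in the first list, 20 were tested and 10 were not called. RBCs were higher for 9 (45.0%, against 34.2% over all genes tested) and HBCs for 1, Adam17 (5.0%, against 12.8%). In 6 of the 20, Dpp4 and Mmp9 among them, only the RBC value passed the filter. Of the 14 that reached 1 in both groups, 4 were higher in RBCs and 1 in HBCs, where 24.0% and 14.4% of all such genes were. Dpp4, a protease that trims the ends of Cxcl10, Cxcl12 and other chemokines, reached 12.8 in RBCs against 0.167 ± 0.146, and Mmp9 reached 15.8 against 0.318 ± 0.55. Of 30 signalling genes, 27 were tested, of which 14 were not called and 11 (40.7%, near the 34.2% over all genes) were higher in RBCs. The cultures were higher for 2 (7.41%, against 12.8%). In 8 of the 27, Adrbk2, Coro1a and Pik3cg among them, only the RBC value passed the filter. Of the 19 that reached 1 in both groups, 4 were higher in RBCs, again against 24.0% of all such genes. The receptor kinase Adrbk2 reached 221 in RBCs against 0.293 ± 0.388, and beta-arrestin 1, Arrb1, which turns receptors off, was at 235 and 4.67 ± 0.731. Coro1a and Pik3cg, both known from leukocytes, were at 31.2 and 18.3 in RBCs and below 1 in HBCs.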

How the data were processed

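Per the submitters' processing notes, STAR, Cufflinks 2.2.1, Cuffnorm and the mouse build mm9 were used, without a role or order. Neither annotation, strand handling nor filtering is given in the sources used here. The authors deposited 1 table of FPKM values, with a column per library, matched to samples by title. In the 6 library pairs, 12.4% to 26.0% of genes with all values below 4 had a ratio within 2% of 1 although the sums differ, so the deposited FPKM appear to keep each library's depth. Values were divided by 1 median-ratio factor per library (11134 genes at 10 or more in every library), which were 0.843, 1.05, 1.07 and 1.06.

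Genes whose HBC and RBC levels averaged at least 1 were tested (16440 of 23281). The fit used limma 3.58.1 (R 4.3.3) on log2(value + 1) (mean-variance trend, two-sided, Benjamini-Hochberg adjustment, 2 residual degrees of freedom). P-values rest on the spread of the cultures, which may be technical, and take it to hold for the single RBC library. Log2 changes on this scale understate low genes, and folds are ratios of scaled values. The procedure was tested on simulated data in which the RBC library had the spread of the cultures. Such a test cannot show whether that spread holds for the real RBC library. Genes at 10 or more in a group were named, along with low members that complete a class and, from each list of related genes, mainly those with the largest called changes. Low members, uncalled values and markers listed at 0 were added after their values were seen. The members and lists were chosen with earlier results of these data known. Columns left unused numbered 0. A few values are not reported here. RefSeq promoters (GRCm38.p6) were searched for motifs, and exon overlaps came from GENCODE M21.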

Additional observations from a re-analysis of the deposited data

How the results depend on the processing

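The counts and the 33 tested members above 0 in an HBC library were recomputed under 12 alternatives. Ccl11, Ccr1, Ccr9, Cxcl11 and Cxcr6 gave no value in 1 or 2 of them, where they fell below a filter or were at 0 in the HBC libraries left. The number of chemokine and receptor genes called higher in HBCs (12) ran from 9 to 14, and from 10 to 11 when 1 HBC library was left out. The number called higher in RBCs (22) ran from 16 to 19 with 1 HBC library left out and fell to 14 under quantile normalization, where 14 were higher in HBCs. Over all genes, 2105 called higher in HBCs became 3781 with the medians set equal and 3663 under quantile normalization, and 5621 called higher in RBCs became 3155 under the latter. Those settings moved the median log2 change of all genes by -0.49 and -0.54. The share of called members higher in RBCs was 64.7%, and 50.0% under quantile normalization. Of 33 genes, 15 kept their call and direction in every alternative that gave a value, among them Ppbp, Cxcl1, Cxcl2, Cxcl5, Cxcl10, Cxcl12, Cxcl16, Cxcl17, Cx3cl1 and Cxcr7. The direction turned for Ccl20 with medians set equal (-0.18), for Pf4 without HBC library 1 (-0.19, against up to 1.38 without library 3), and under quantile normalization for Pf4 (-1.59), Ccr1 (-1.97), Ccr9 (-0.15) and Cxcr6 (-0.90). The causes were not tested. No paired analysis was possible because the groups share only replicate number 1. Depth in reads is unknown, so low values cannot be given a counting interval.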
